A study of Drosophila melanogaster with 4 samples.

Results

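Some stretches of the Drosophila melanogaster genome held long runs of closely spaced peaks of cap'n collar (CNC) in late embryos, and the peaks under 2000 bp wide within those runs are described here. Neighbouring peaks of one list on the 6 chromosome arms (2L, 2R, 3L, 3R, X and the small chromosome 4) were joined when fewer than 5000 bp lay between their edges, and a run of 10 or more listed peaks is called an array. The members were chosen by the positions and widths of the listed peaks, so their number, spacing and width are descriptions. The score comes from the same peak call, and it too is given without a test. The rule gave 49 arrays with 661 peaks, of which 624 were under 2000 bp wide and are the members. They made up 13.1% of the 4752 peaks on the 6 arms. The whole list holds 4758.

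Chromatin immunoprecipitation with sequencing was done on whole embryos aged 16 to 24 h, with 2 libraries from CNC immunoprecipitate and 2 from input DNA, sheared chromatin taken without the antibody. All 4 libraries came from the strain Y cn bw sp, named for its body and eye colour markers. On the X chromosome it carries oc[R3.2] beside y[1]. On the second chromosome it carries sp[1], bw[1] and cn[1], along with CG33964[R4.2], Gr22d[1] and Gr22b[1]. On the third it carries Rh6[1], GstD5[1] and MstProx[1], along with lab[R4.2] and LysC[1]. There was no mutant, treatment or second stage, so nothing could be compared between conditions. Whether the replicates came from separate embryo collections is not labelled, and each library was made from many pooled animals of all tissues. The antibody, KW0-CNC, is a rabbit polyclonal.

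CNC is a basic leucine zipper transcription factor that binds DNA as a dimer with a small Maf protein. Keap1 holds back its long isoform, CncC, the fly counterpart of vertebrate Nrf2, which switches on detoxification and antioxidant genes under stress. The isoform CncB patterns the mandibular segment of the embryonic head. The isoforms share the basic leucine zipper region, and the antigen given in the labels includes it, so the libraries do not tell isoforms apart.

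The only values are 1 start, 1 end and 1 score per peak for the series as a whole. Neither the scale of the score nor the peak threshold is stated in the header or labels. There is no value per library, so no spread between replicates can be given, and the read depth is unknown. Coordinates are those of FlyBase release 5, as deposited. No genome or gene annotation of that release was used here, so arrays are named by position and no gene, promoter or sequence is assigned to them.

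The arrays were 5.09% of the 962 groups of 2 or more peaks on the arms. Together they spanned 1006 kb, of which listed peaks covered 443.0 kb and the members alone 331 kb. The members held 11.1% of all bases covered by peaks on the arms, against 13.1% of the peaks, since the rule leaves out the wider peaks. Broad peaks, those of 2000 bp or more, numbered 37 in arrays and 178 outside them. Thus 17.2% of the broad peaks of the arms stood in arrays, beside 13.9% of all peaks on the arms.

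Most arrays were small, and the longest, at 57.7 kb, stood well apart from the next, at 37.0 kb. An array held 10 to 40 peaks with a median of 12, and the middle 50% held 11 to 15. It spanned 7.67 to 57.7 kb with a median of 19.5 kb. Peaks lay at a median density of 0.65 per kb, from 0.39 to 1.30. Listed peaks covered a median of 41.1% of an array, from 24.7% to 81.6%. Across the 49 arrays the number of peaks went with the span (Spearman's rho = 0.62) and hardly with the density (rho = 0.09). These are descriptions over arrays that share their libraries and their peak call, and the least number of peaks is fixed by the rule.

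**Figure D1:**
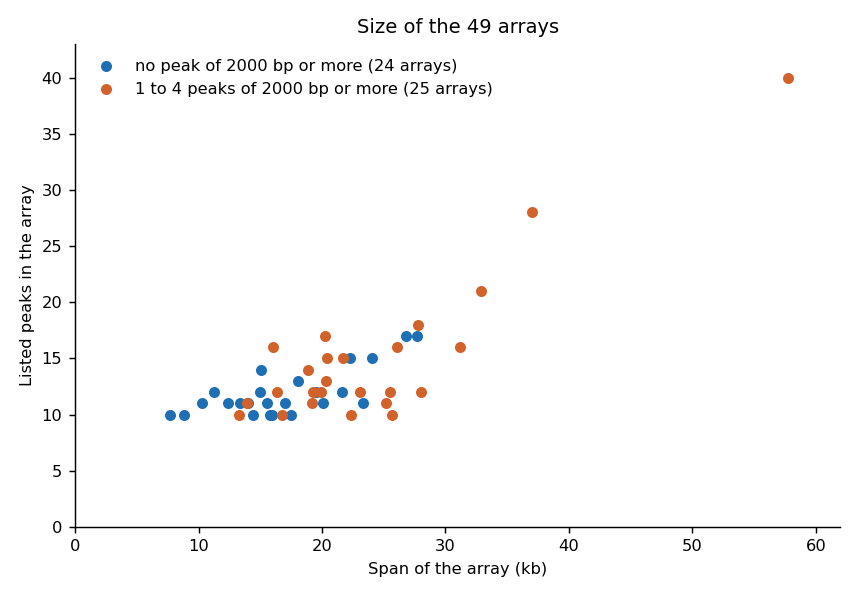
Number of listed peaks in each of the 49 arrays against its span in kb, with 1 point per array. Arrays with 1 to 4 broad peaks (orange) reach 40 peaks and 57.7 kb, and those with none (blue) end at 17 peaks and 27.7 kb.

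Arrays occurred on every large arm. Chromosome 4 had 7 listed peaks, too few for an array under the rule. The arm 3R held 15 arrays, 2R held 12, X held 9, 2L held 7 and 3L held 6. As a share of each arm's own peaks, members made up 15.9% on 3R (198 of 1249), 14.9% on 2R (154 of 1032), 14.3% on X (113 of 789), 10.99% on 2L (88 members) and 8.12% on 3L (71 of 874). The shares on 3R, 2R and X lay within 2 percentage points of each other, and 2L and 3L were lower. The fullest array of an arm held 40 peaks on 3R, 28 on 2R, 21 on 3L, and 17 each on 2L and X. Broad peaks occurred in 10 of the 15 arrays of 3R, in 6 of 12 on 2R, and in 3 each on 2L, 3L and X.

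By the authors' score, members lay around the middle of the list. The median member had a score of 12.6 and measured 396 bp, and the middle 50% scored 10.2 to 16.4 and measured 259 to 648 bp. The 3913 peaks under 2000 bp outside arrays scored 12.1 and measured 361 bp at the median, with a middle 50% of 9.84 to 16.3 and 256 to 607 bp. The middle 50% of both parts thus nearly coincided. The full range of scores was 6.83 to 107.16 for members and 5.55 to 205.79 for the narrow peaks outside. A score of 20 or more was reached by 16.0% of members (100 of 624) and by 16.0% of the narrow peaks outside. Members below the median of the whole list, 12.5, numbered 301, or 48.2%, against 53.1% of the narrow peaks outside. At the narrowest width in the list stood 19 members (3.04%) and 96 narrow peaks outside arrays (2.45%).

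Score rose with width inside arrays as it did outside, with a Spearman's rho of 0.71 over 624 members and 0.70 over 3913 narrow peaks outside. Both values of a peak come from the same reads, so the correlation is a description. Within width classes up to 800 bp the medians lay close together. Up to 250 bp the median score was 9.89 for 133 members and 9.75 for 882 peaks outside. Above 250 and up to 350 bp it was 11.1 for members and 10.7 outside. The next class, up to 500 bp, gave 12.5 and 12.4, and the class up to 800 bp gave 15.4 and 15.3. In the widest class, above 800 and under 2000 bp, members were lower, with a median of 21.3 over 110 members and 23.3 over 642 peaks outside. This difference was -2.07 (members minus outside), and the middle 50% of the members in this class ran from 17.1 to 31.0. In each narrower class the median of members was the higher, by 0.05 to 0.32. Weighted by the number of members per class, the medians differed by -0.23 (members minus outside), with the sign set by the widest class. Whether the medians differ beyond the scatter of single peaks was not tested.

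**Figure D2:**
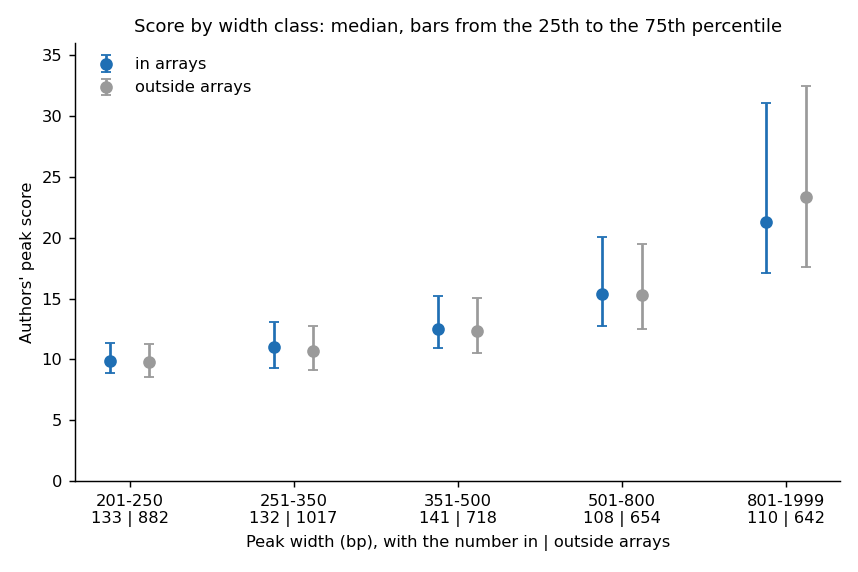
Authors' peak score by width class for the members (blue) and the narrow peaks outside arrays (grey), with the number of each under the axis. Points are medians and bars run from the 25th to the 75th percentile; the bars overlap in all 5 classes, and the medians part most above 800 bp, 21.3 against 23.3.

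Narrow peaks in other surroundings had similar levels. The 839 that stood alone, with no other peak under 5000 bp away, scored 12.1 and measured 362 bp at the median. The 1346 narrow peaks in groups of 5 to 9 had medians of 12.3 and 376 bp. On single arms the median score of members was 13.1 on 3L, 13.0 on 3R, 12.6 on 2L, 12.3 on 2R and 11.7 on X. The narrow peaks outside arrays had medians of 12.0 on 3L, 12.4 on 3R, 12.1 on 2L, 12.2 on 2R and 12.1 on X. X was the arm on which members had the lower median.

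The strongest members were spread over several arrays. A score of 50 or more was reached by 9 of the 624 members, and 1 of these passed 100. The whole list held 55 peaks of 100 or more, but these include broad peaks, which the rule keeps out of the members. The share of narrow peaks outside arrays at 50 or more was not counted, so these counts do not show fewer strong peaks among members. At 20 or more the shares were equal, 16.0% each. The strongest narrow peak outside arrays scored 205.79. The strongest member was a peak of 1947 bp on 2R from 3519118 to 3521064. It scored 107.16, rank 42 in the whole list, and lay in an array of 10 peaks without a broad one. It was also the widest member. The next was a peak of 1219 bp on X from 2539554 to 2540772, which scored 85.27 and ranked 88. The array of 3L from 4219562 to 4232899 held 2 of the 9, with scores of 77.03 and 50.34. The others scored 68.56 and 54.01 on 3L, 57.14 on X, 55.43 on 2L and 52.51 on 3R. These 9 were named because of their scores, after those were seen.

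The median member score of an array ran from 9.50 to 17.0, with a middle 50% of 11.3 to 13.7. Of the 49 medians, 23 lay above that of the whole list. Each median rests on 7 to 38 members, and whether arrays differ beyond the scatter of single peaks was not tested. The lowest median belonged to an array of 2R from 3413954 to 3427255, with 7 members and 3 broad peaks, in which peaks covered 81.2% of the span. The highest belonged to an array of 3R from 3930885 to 3949766, with 12 members and 2 broad peaks. In 7 arrays no member reached a score of 20. The number of peaks in an array went weakly with the median score of its members (rho = 0.18 over 49 arrays), and the covered share somewhat more (rho = 0.32), though score and width rise together and wide peaks raise the covered share.

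**Figure D3:**
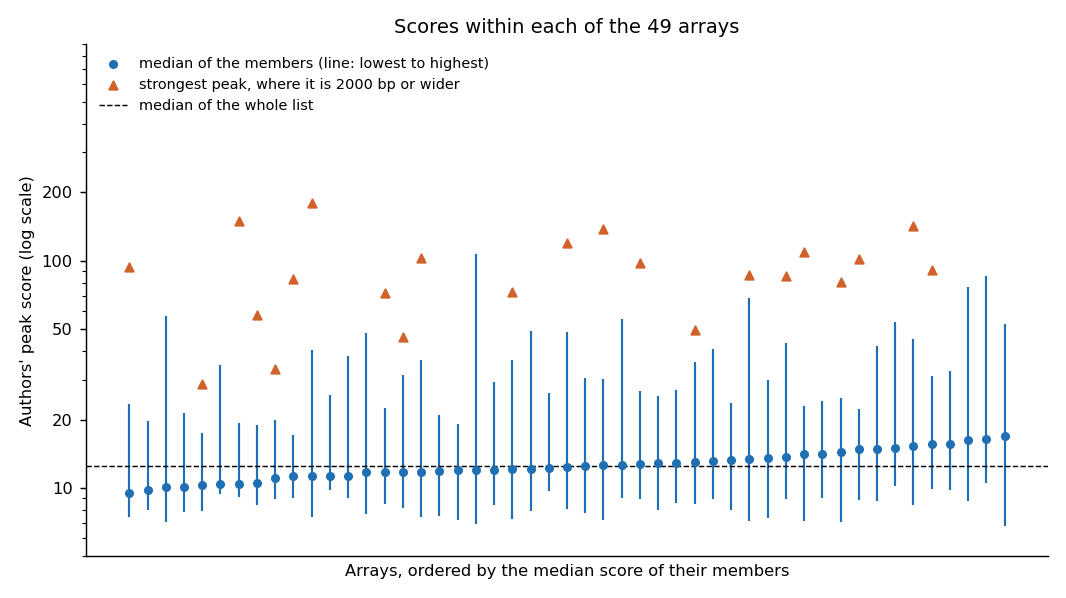
Scores in each of the 49 arrays on a log axis, ordered by the median of the members (blue points, 9.50 to 17.0) with lines from the lowest to the highest member. The dashed line is the median of the whole list, 12.5, and orange triangles give the strongest peak of the 22 arrays in which it is 2000 bp or wider.

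Nearly equal numbers of arrays had and lacked a broad peak. In 25 arrays there was at least 1, with 16 arrays holding 1, 7 holding 2, and 1 array each holding 3 and 4. The other 24 were made of members alone. The broad peak was the strongest of its array in 22 of the 25 and a member was the strongest in 3. Broad peaks in arrays had a median score of 73.2, against 62.4 for the 178 broad peaks outside. In arrays with a broad peak the 337 members had a median score of 12.7. In arrays without one the 287 members had a median of 12.6. The arrays with a broad peak were longer, with a median span of 21.7 kb against 15.9 kb, and more fully covered, with a median of 45.0% against 35.3%. Both measures include the broad peak itself, so part of these differences is built in. The median number of peaks per kb was 0.64 in arrays with a broad peak and 0.68 in those without.

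Members next to a broad peak scored much like those further off in the same arrays. The 59 members adjoining a broad peak had a median score of 13.4 and a middle 50% of 10.3 to 16.7. The 278 others in those arrays had a median of 12.6 and a middle 50% of 10.6 to 16.1. The adjoining members were narrower, with a median width of 370 bp against 421 bp, so the scores are not compared at equal width. The gap from a member to the broad peak beside it had a median of 226 bp over 61 such gaps, and 26 were under 200 bp. Along arrays the scores of neighbouring members were nearly unrelated, with a Spearman's rho of 0.12 over 548 pairs, against 0.01 over 2086 narrow pairs in smaller groups.

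Spacing within arrays resembled that within smaller groups. The longer run of peaks in arrays is set by the rule. The median gap between edges was 407 bp over 612 gaps inside arrays and 482 bp over 2323 gaps inside groups of 2 to 9. Gaps under 200 bp made up 28.1% and 27.6%, and gaps under 1000 bp made up 70.8% and 68.6%. The shortest gap listed was 44 bp in both. Both sets of gaps are held under 5000 bp by the joining rule. Single arrays had median gaps from 112 to 2081 bp. The coefficient of variation of the distance between neighbouring midpoints ran from 0.39 to 1.10 with a median of 0.69.

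**Figure D4:**
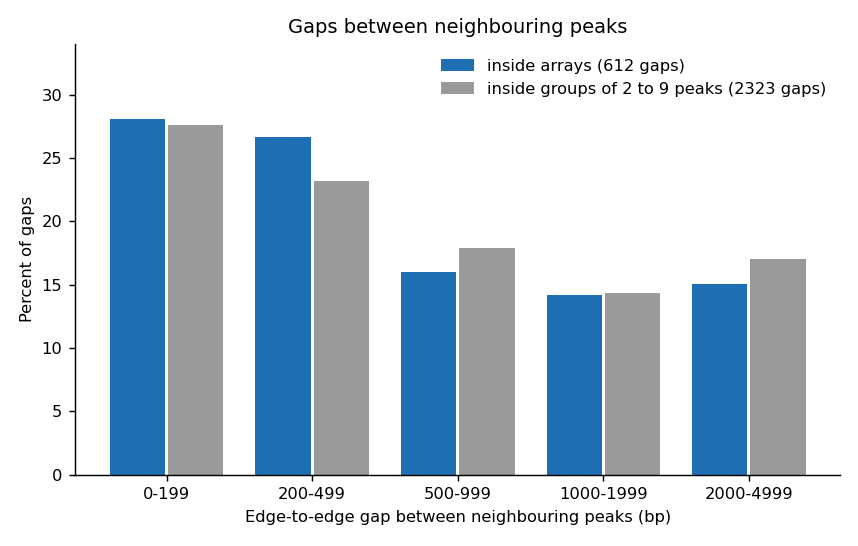
Share of edge-to-edge gaps in 5 length classes (bp), inside arrays (blue, 612 gaps) and inside groups of 2 to 9 peaks (grey, 2323 gaps). The bars differ most in the class from 200 to under 500 bp, at 26.6% and 23.2%, and stand at 28.1% and 27.6% under 200 bp.

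How many separate sites an array holds depends on what is counted as one. When peaks under 200 bp apart were taken as 1 block, the 661 peaks formed 489 blocks, and an array held 5 to 28 with a median of 9. At least 10 blocks were left in 22 arrays. When peaks under 1000 bp apart were taken as 1 block, 228 blocks were left, with 1 to 12 per array and a median of 5. The array with 12 was then the sole one with at least 10, and 2 arrays became a single block. Whether neighbouring peaks are separate binding sites or pieces of one enriched stretch was not tested.

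The arrays with the most peaks and those at the ends of each range show different arrangements. The longest, on 3R from 12031119 to 12088837, held 38 members and 2 broad peaks over 57.7 kb. Its members scored 8.46 to 35.71 with a median of 12.9, 15 of the 38 lay below the median of the list, and 8 reached 20 or more. Its strongest peak, a broad one from 12066198 to 12068602, scored 49.59 and ranked 223. Its strongest member ran from 12080376 to 12081144 with a width of 769 bp. From 12053251 to 12082121 lay 3 runs of 9.79, 6.53 and 9.51 kb, with 8, 7 and 11 peaks and no gap of 1000 bp or more inside a run. On its left, 5904 bp away, stood another array of 10 members from 12016419 to 12025214, with scores of 9.84 to 25.63.

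The array with the next most peaks, on 2R from 7059913 to 7096946, was almost continuous. Of its 28 peaks, 27 formed 1 block of 35.2 kb with no gap of 1000 bp or more, and peaks covered 81.6% of its span. It held 4 broad peaks, at its left edge (score 142.91), from 7070039 (97.27), from 7074629 (31.93) and from 7088821 (71.88). Its 24 members scored 8.41 to 45.21 with a median of 15.3. The strongest of them, 1591 bp wide, ran from 7084083 to 7085673 between the third and the fourth broad peak.

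On 3L from 8666453 to 8699324, 20 members and 1 broad peak stood over 32.9 kb, with the 2 strongest peaks near opposite ends. The broad peak, from 8667148 to 8669703, scored 86.46. The member that closes the array on the right, from 8697649 to 8699324, scored 68.56 and was 1676 bp wide. The 19 members between and beside them scored 7.13 to 23.79, and no gap in this array was under 200 bp.

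Another 3R array, from 21110256 to 21138016, held 17 members and 1 broad peak in 4 blocks. Its broad peak, from 21131175 to 21133853 with a score of 85.38, was followed after 183 bp by its strongest member, from 21134037 to 21135943 with a score of 43.52. The 9 members of its middle blocks scored 8.94 to 15.68. A further array of 3R, from 6205166 to 6225412, placed 15 members around 2 broad peaks with scores of 84.93 and 109.8. None of these members passed 23.03, and 16 of the 17 peaks lay in 1 block of 16.3 kb.

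The fullest arrays of X and 2L had 17 members each and no broad peak. On X, from 2530706 to 2557536, members were higher than in most arrays, with a median of 16.4, and 1 of 17 lay below the median of the list. Its peak of 1219 bp at 85.27 stood above the rest, which scored 10.49 to 30.25. On 2L, from 1624651 to 1652383, the median was 12.1 and the members formed 8 blocks, the longest of 4.23 kb. Its strongest member, from 1648170 to 1649430, scored 48.98, and the next reached 22.5.

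At the extremes, the highest peak of any array was a broad one on 2R from 3361885 to 3367559, which scored 178.71 and ranked 10. The 14 members of its array, which ran from 3343319 to 3369377 and held a second broad peak at 119.36, had a median of 11.3. The strongest of these members, from 3344218 to 3345407, scored 40.33. The array with the lowest top, on 2R from 8208631 to 8231912, had 11 members from 7.24 to 19.11 and no broad peak. Its strongest member ran from 8227170 to 8227896, and peaks covered 24.7% of its span, the lowest share of the 49 arrays. Both extremes of top score thus lay on the same arm and had similar member medians, 11.3 and 11.9.

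The most compact array was also the shortest, with 10 members in 7.67 kb of 3R from 14221534 to 14229201, or 1.30 per kb. Its longest gap was 898 bp. Its members scored 7.97 to 25.3, and the strongest, from 14228759 to 14229201, was the last. The sparsest, on 3R from 7492212 to 7517844, had 10 peaks in 25.6 kb, or 0.39 per kb. Its 8 members scored 8.88 to 22.26, the strongest of them from 7498639 to 7499043. Its strongest peak, a broad one scoring 102.02, closed the array on the right.

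**Figure D5:**
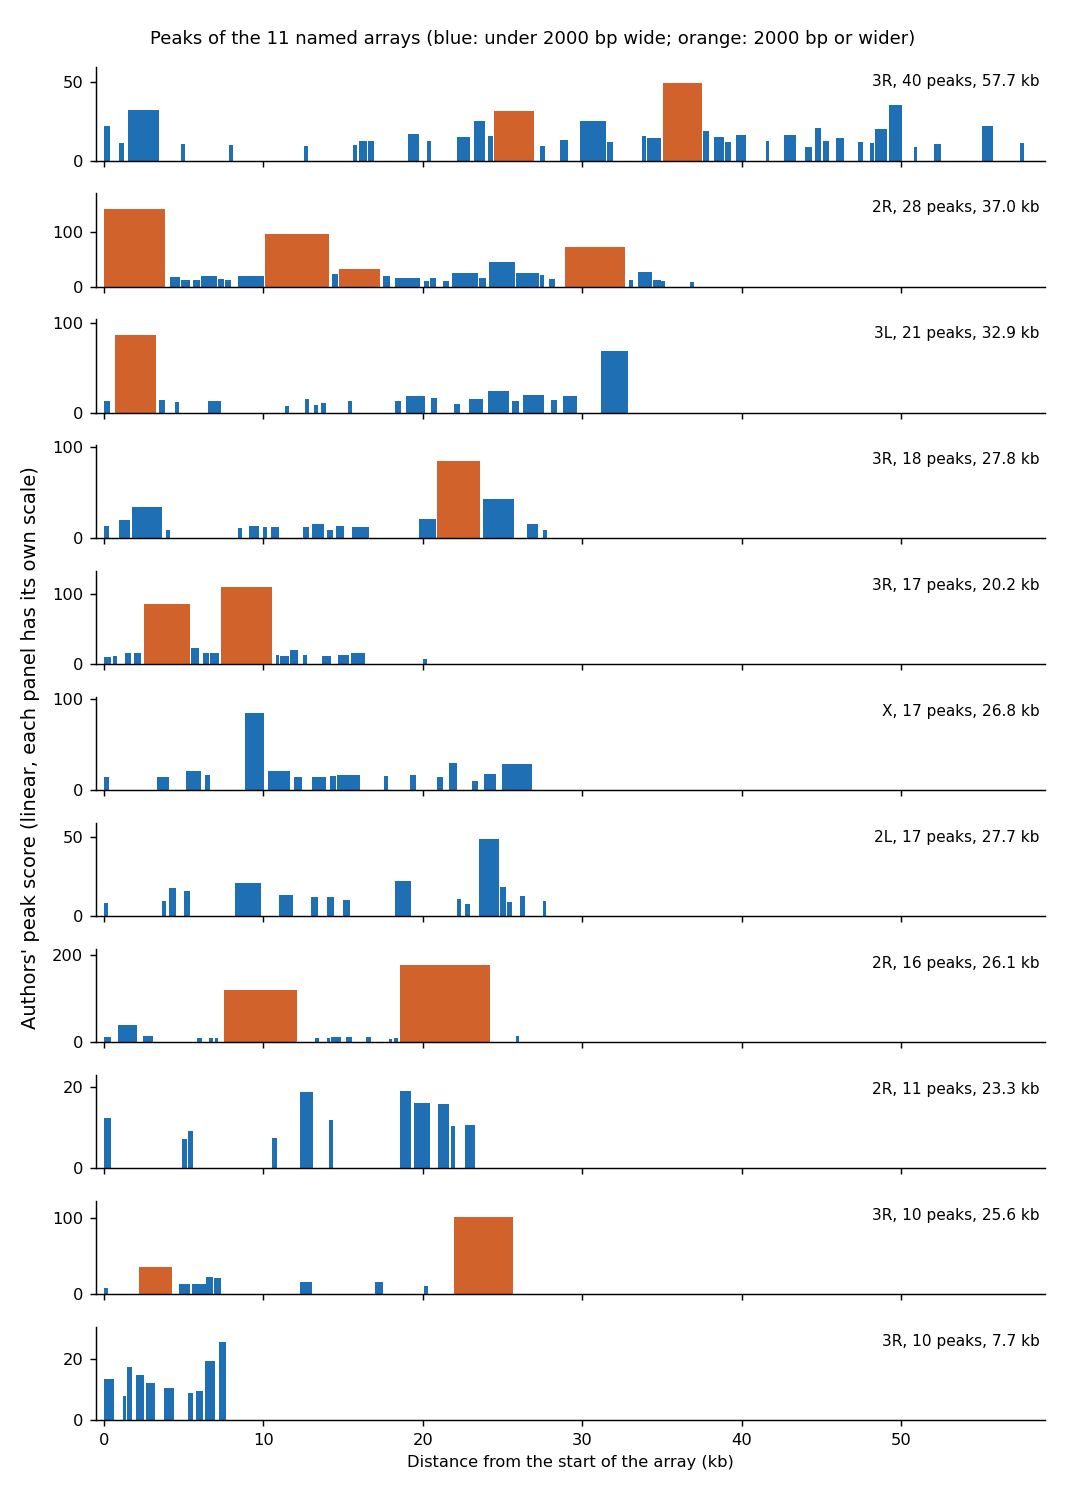
Peaks of the 11 arrays named by rule, each drawn to scale by its distance in kb from the start of the array, with the height giving the authors' score on a linear axis of its own per panel. Members are blue and broad peaks orange, and 4 of the 11 arrays have no broad peak. The 3R array of 40 peaks stays at or under 49.59, and the 2R array with 28 peaks is nearly continuous.

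The strongest peak had no fixed place within an array. With the span cut into 3 equal parts, its midpoint fell in the first part in 15 arrays, in the middle part in 20 and in the last part in 14. It was the first or last peak in 6. The distance from an array to the next peak outside it had a median of 26.6 kb over 98 edges and was under 10 kb at 18 of them. Arrays seldom neighboured each other: of 44 pairs of consecutive arrays on an arm, 4 were under 100 kb apart. The closest after the 3R pair above were 2 arrays of 10 peaks each on 3R, from 9844842 to 9861594 and from 9878122 to 9893929, with 16.5 kb between them and no peak in that gap. The other 2 pairs were formed by 3 arrays of 2R between 3343319 and 3527071, with 16, 10 and 10 peaks.

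Groups just under the limit of 10 peaks are set beside those just over it. The 49 groups of 8 or 9 peaks held 392 narrow peaks with medians of 12.6 in score and 367 bp in width, and 18 of the groups had a broad peak. The 21 groups of 10 or 11 held 210 narrow peaks with medians of 12.6 and 419 bp, and 7 had a broad peak. The median gap was 408 bp in the smaller groups and 504 bp in the larger, and peaks covered a median of 46.8% and 37.7% of the span. The median scores were thus nearly equal. The gap did not rise steadily with group size. Its median was 345.5 bp in groups of 8, 531.5 bp in groups of 9, 520 bp in groups of 10 and 478.5 bp in groups of 11. In the 14 groups of 15 or more peaks the median gap was 359.5 bp and the median cover 45.0%. At the width limit, the widest members measured 1947, 1946 and 1940 bp with scores of 107.16, 32.26 and 36.54. The narrowest broad peaks in arrays measured 2040, 2053 and 2103 bp with scores of 36.15, 46.2 and 23.08. At the joining limit, the longest gaps inside arrays were 4981, 4938 and 4907 bp, and the shortest gaps to a peak outside were 5304, 5632 and 5904 bp.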

How the data were processed

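Chromatin immunoprecipitation libraries (2) and input libraries (2) of whole embryos gave 1 peak list for the series. The list was made with MACS on FlyBase release 5, per the file headers. The submitters' processing notes name the build BDGP5 and the tools BWA, CASAVA (1.7.0.2, 1.7.0.3) and MACS2. Not given in the sources used here are the pooling, the threshold and what the score deposited by the authors measures.

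From the deposited starts, ends and scores, gaps, widths, groups, medians, quartiles and Spearman's rho were computed with Python 3.11.15, numpy 2.4.6, pandas 2.3.3 and scipy 1.17.1. The 6 unplaced Uextra peaks were left out. The grouping step was checked on a made-up list with known groups. No test was run, since the rule used the same peak call.

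The members and named arrays were chosen with earlier results of these data known. Named by rule were the 5 arrays with most peaks, the fullest of each arm, and those with extreme top score, span or density, each with its strongest member. The planned sequence, motif and gene descriptions needed a release 5 genome and annotation and were not run. Alternatives changed the joining distance, least number of peaks, width limit, score threshold and merging.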

Additional observations from a re-analysis of the deposited data

How the results depend on the processing

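The number of arrays was set by the rule: against 49 arrays with 624 members (13.1% of peaks), joining under 3000 bp gave 31, 396 and 8.33%, joining under 10000 bp 79, 1050 and 22.1%, 8 or more peaks 98, 1016 and 21.4%, 15 or more 14, 250 and 5.26%, merging under 200 bp first 22, 253 and 6.42%, and the 50% of peaks with the highest score 7, 90 and 3.78%. Merging under 1000 bp, chosen after seeing the data, left 1 array with 8 members (0.29%). After merging, and with the highest-scoring 50%, the percentages are of the shorter list that the setting leaves. They are therefore not on the same base as 13.1%. Under 1000 bp wide, members were 11.7% of peaks. These shifts follow from the settings' own construction. The order-statistic intervals of the medians treat peaks, gaps or arrays as separate draws, though they share 1 peak call. Several settings are subsets of the same peaks. The intervals thus serve only as a yardstick. The median member score of 12.64 moved just beyond its interval (12.26 to 13.07) to 13.105 with 15 or more peaks. It moved to 16.4 with the highest-scoring 50% and 12.2 under 1000 bp wide. The median width of 396 bp moved to 568 bp and 361 bp under the last 2. The median gap of 407 bp moved to 334 bp (3000 bp), 515 bp (10000 bp), 824 bp (merged under 200 bp) and 349 bp (highest-scoring 50%). The median covered share of 41.1% moved to 49.5% (3000 bp), 31.3% (10000 bp) and 49.2% (highest-scoring 50%). The score difference within width classes, -0.23, was -0.38 with 4 equally filled width classes and -0.22 after merging under 200 bp. Its interval, -1.23 to 0.78, is the standard deviation between width classes on either side. The remaining values stayed within their interval or within 1.5 times the count. No paired analysis was possible because the list holds no value per replicate, and no library could be left out for the same reason. The read depth behind the peaks is unknown, so weak sites under the threshold are not seen. Alternatives for sequence windows were not run.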
